A study of Homo sapiens with 74 samples.

Results

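The regions described here are the accessible regions that overlap the loci of ARID1A and ARID1B in HAP1, a near-haploid human cell line derived from a chronic myeloid leukaemia. They were chosen by position alone, as every region of the deposited count tables that overlaps a window of 130 kb on chromosome 1 (ARID1A) or of 470 kb on chromosome 6 (ARID1B) of hg19. This gave 67 of the 145536 regions of the knockout table, 10 at ARID1A and 57 at ARID1B, and the same 67 of the 145730 regions of the knockdown table. All 67 passed the filter on low counts in both tables.

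The knockout table held 56 libraries of HAP1 cells, with 2 libraries for each of 26 clones that lack 1 of 22 genes of the BAF complexes, and 4 of wild-type cells. ARID1A (clones 3 and 10), ARID1B (clones 5 and 7), BCL7B (clones 8 and 10) and SMARCA4 (clones 4 and 6) had 2 clones, and the other 18 genes had 1, so that for those gene loss and the history of the clone cannot be told apart. The knockdown table held 16 libraries, 2 for each of 8 combinations of a cell line (wild type, SMARCA4 knockout or ARID2 knockout) with a control, SMARCA4, ARID2 or double knockdown. Library titles come in 2 forms. Form 1 covers 23 clones and wild-type replicates 1 and 2, form 2 covers ARID1B clone 5, BCL7B clone 10, SMARCC2 clone 10 and wild-type replicates 5 and 6, and the reference for a clone was the wild type that shares its form. Whether replicates were separate cultures is not stated in the labels, and p-values cover only the spread among libraries, which may be technical.

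ARID1A and ARID1B are the alternative DNA-binding subunits of canonical BAF, a SWI/SNF complex that slides and evicts nucleosomes with energy from ATP hydrolysis. A complex carries either ARID1A or ARID1B and never both, and the remaining paralog sustains canonical BAF when the other is lost. ARID1A is among the chromatin genes most often mutated in human cancer, and loss of 1 copy of ARID1B causes a neurodevelopmental syndrome. SMARCA4 (BRG1) and SMARCA2 (BRM) are the ATPases, SMARCC1, SMARCC2 and the SMARCD proteins form the core, and ARID2, PBRM1, BRD7 and PHF10 belong to the related PBAF complex. The question put to these loci is whether their chromatin changes when the gene itself, its paralog or another subunit is removed.

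The annotated gene starts of ARID1A and ARID1B differ in sequence. A second RefSeq start of ARID1B is rich in G and C, as is that of ARID1A. RefSeq (GRCh38.p14) places ARID1A and ARID1B on the plus strand of chromosomes 1 and 6, over 86.1 and 435 kb, and the 250 bases before each annotated gene start are shown to give the sequence context of the genes at these loci. The ARID1A stretch, chr1:26695765-26696014, is 80.4% G and C with 30 CpG, and its GC content is higher than that of 97.1% of 35116 promoters of this length. The ARID1B stretch, chr6:156775776-156776025, is 38.8% G and C with 5 CpG, above 10.8% of promoters. Capitals mark matches, on either strand, to GGGCGG, the GC box.
ARID1A: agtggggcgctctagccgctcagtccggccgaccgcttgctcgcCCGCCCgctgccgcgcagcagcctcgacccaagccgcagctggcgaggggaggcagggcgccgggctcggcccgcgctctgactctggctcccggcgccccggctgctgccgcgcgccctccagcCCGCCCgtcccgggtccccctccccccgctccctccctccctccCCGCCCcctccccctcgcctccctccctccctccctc
ARID1B: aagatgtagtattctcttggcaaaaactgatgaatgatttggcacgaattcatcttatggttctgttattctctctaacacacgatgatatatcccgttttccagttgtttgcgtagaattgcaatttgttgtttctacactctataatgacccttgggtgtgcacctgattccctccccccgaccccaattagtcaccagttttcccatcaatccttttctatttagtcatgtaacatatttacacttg
GGGCGG occurred 3 times before ARID1A and 0 times before the annotated start of ARID1B, and 42.6% of promoters held it at least once. A second RefSeq start of ARID1B, chr6:156777128-156777377, is 76% G and C with 37 CpG and has 4 matches. CCAAT occurred 1 time before the annotated ARID1B start and 0 times before ARID1A, against 32.0% of promoters with a match on either strand, and TATAAA and TGANTCA occurred before neither. A match is a description of letters and not a binding site. These coordinates are of another build than hg19 and were not set against the regions, so which region lies over a gene start, exon or intron was not determined.

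Regions are numbered along each locus, and their coordinates are hg19 as the files give them. Levels are CPM, the counts of a region scaled to a common library size, with sizes adjusted by edgeR's TMM method. In wild type the ARID1A locus had a few accessible regions, and the longer ARID1B locus had many weaker ones. At ARID1A, region 2 (chr1:27018569-27020013) was the most accessible, at 29.9, 26.3, 32.2 and 30.6 CPM in wild-type replicates 1, 2, 5 and 6. Regions 2, 9 and 3 held 61.3% of the locus in wild type, and 5 of the 10 regions were over 10 CPM. At ARID1B, region 28 (chr6:157341953-157343643) was the most accessible, at 47.4, 43.4, 45.1 and 38.6 CPM in the same libraries. Region 28 held 11.3% of its locus, regions 28, 1 and 2 together 25.2%, and 9 of 57 regions were over 10 CPM. Region 2 of ARID1A lay above 96.0% and region 28 of ARID1B above 98.6% of all regions by wild-type mean.

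**Figure D1:**
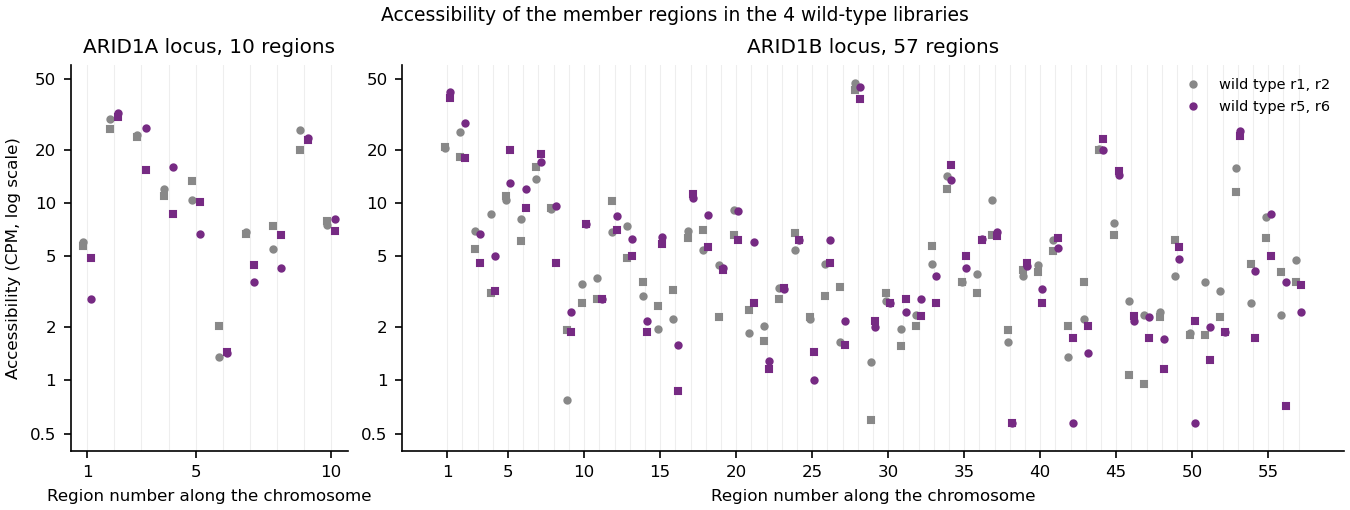
Accessibility of the 67 regions (vertical axis, CPM on a log scale) by their number along the ARID1A locus (left) and the ARID1B locus (right) in 4 wild-type libraries. Grey points are replicates 1 (circle) and 2 (square), and purple points replicates 5 (circle) and 6 (square). Region 2 of ARID1A and region 28 of ARID1B are the highest, and at ARID1B regions 1, 45 and 53 the purple points stand above the grey ones.

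The wild-type libraries of the forms differed at the ARID1B locus with no gene removed. Replicates 5 and 6 were higher than replicates 1 and 2 at 5 of 57 regions of ARID1B, regions 1, 10, 15, 45 and 53, and at 0 of 10 of ARID1A. Called here means an adjusted p under 0.05 in edgeR's quasi-likelihood test, with Benjamini-Hochberg adjustment over all regions tested. Of all regions, 5.82% were called in this comparison of wild-type libraries. Region 1 (chr6:157095095-157096571) was at 20.6 and 20.8 CPM in replicates 1 and 2 and at 42.5 and 39.4 CPM in replicates 5 and 6, a log2 change of 0.98 (SE 0.19, adjusted p = 0.000104). The other 4 had log2 fold changes of 0.86 to 1.44. At none of the 5 regions did the libraries overlap, but the regions were called on these same libraries, so this adds no support. Calls against wild-type replicates 1 and 2 at these regions are to be read beside the levels of replicates 5 and 6, which were 42.5 and 39.4 CPM at region 1, 7.59 and 7.64 at region 10 and 25.6 and 24.1 at region 53.

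Reads were present at all 10 regions of the ARID1A locus after loss of ARID1A itself. In the ARID1A knockout (2 clones, 4 libraries, against wild-type replicates 1 and 2), 2 regions of the ARID1A locus fell, 0 rose, and 8 did not pass the test. Of all regions, 12.6% were called in this comparison and 10.3% were lower, so 2 of 10 is not set apart from the genome. The 2 regions are region 5 (chr1:27049622-27050455) and region 7 (chr1:27097867-27098564), which hold a 1.73-fold and a 2.2-fold lower level than wild type. Region 2, the most accessible, was not among them, with a log2 change of 0.30 (SE 0.16, adjusted p = 0.235). The ATAC-seq counts of these regions do not test the edit itself, and the site of the edit within the gene is not given in the sources used here.

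At region 5 the libraries held 5.86 and 7.19 CPM in clone 3, 7.71 and 6.59 in clone 10, and 10.5 and 13.3 in wild-type replicates 1 and 2. All 4 knockout libraries were below both wild-type libraries of form 1. The log2 fold change was -0.79 (SE 0.21, adjusted p = 0.00379, edgeR), and wild-type replicates 5 and 6 were at 6.73 and 10.1 CPM, of which the first overlaps the knockout libraries. At region 7 the libraries held 3.54 and 3.10 CPM in clone 3, 3.80 and 1.99 in clone 10, and 6.89 and 6.69 in wild-type replicates 1 and 2. The groups did not overlap, and the log2 fold change was -1.14 (SE 0.28, adjusted p = 0.00128, edgeR). Wild-type replicates 5 and 6 were lower at region 7, at 3.58 and 4.47 CPM, and overlap the knockout libraries. With all 4 wild-type libraries as the reference both calls held, at -0.58 (adjusted p = 0.0149) and -0.83 (adjusted p = 0.00945). Without wild-type replicate 2, region 5 lost its call.

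At the ARID1B locus, loss of the paralog ARID1A lowered 7 of 57 regions and raised 0. They are regions 44, 10, 11, 39, 37, 13 and 24, in order of size. Over both loci this made 9 of 67 regions called, or 13.4%, beside 12.6% of all regions in this comparison, and 10.3% of all regions were lower. The share called at the loci was thus near that of the genome. The median log2 fold change was 0.03 over the ARID1B regions, 0.05 over the ARID1A regions and 0.02 over all regions. In the 2 Mb on either side of the loci, 10.4% of 269 regions around ARID1B and 3.83% of 261 around ARID1A were called. Region 12 of ARID1B, which lies between regions 11 and 13, had a log2 change of 0.24 (adjusted p = 0.557), so that neighbours did not move as a block.

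Region 44 (chr6:157466559-157467320) had the largest fall of the 67 in the ARID1A knockout. The libraries held 8.66 and 8.29 CPM in clone 3, 5.36 and 8.47 in clone 10, and 20.3 and 19.8 in wild-type replicates 1 and 2. Wild-type replicates 5 and 6 were at 20.05 and 22.9 CPM, so no wild-type library came near the knockout libraries. The level was 2.61-fold lower, a log2 change of -1.39 (SE 0.19, adjusted p = 1.99e-09, edgeR). It was called with every alternative setting tried, where the adjusted p ranged from 6.84e-17 to 9.60e-06. The other 6 regions were weaker, with means over the 4 wild-type libraries of 3.10 to 7.58 CPM.

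Region 10 (chr6:157162521-157163199) held 1.34 and 0.885 CPM in ARID1A clone 3, 2.57 and 1.46 in clone 10, and 3.49 and 2.75 in wild-type replicates 1 and 2. The groups did not overlap, the log2 fold change was -1.07 (adjusted p = 0.0349, edgeR), and replicates 5 and 6 were higher still, at 7.59 and 7.64 CPM. Region 37 (chr6:157410225-157410931) had a log2 change of -0.98 (SE 0.25, adjusted p = 0.00202). Regions 11 (chr6:157169595-157170118) and 39 (chr6:157418481-157419174) had -1.03 (adjusted p = 0.0428) and -1.0 (adjusted p = 0.0215). Region 11 was the 1 region of the 9 at which a knockout library, at 3.02 CPM, reached the range of wild-type replicates 1 and 2, which began at 2.87. Regions 13 (chr6:157173842-157174477) and 24 (chr6:157309143-157309870) had -0.96 and -0.82. None of the 9 regions is of the shortest length in the files, 501 bp, against 19 of the 58 that were not called. The lowest wild-type mean was 3.10 CPM among the called regions and 1.18 among the others. Length was not tested apart from level.

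No difference between the ARID1A clones was called at these loci. ARID1A clone 3 alone had 2 lower regions at ARID1A and 7 at ARID1B, with 9.68% of all regions called, and clone 10 had 2 and 2, with 8.27%. Regions 5 and 7 of ARID1A and 37 and 44 of ARID1B were called in each. The test of clone 3 against clone 10 called 0 of the 67 regions and 0.0605% of all regions, with 4 of the 67 at an unadjusted p under 0.05. At region 11 the log2 fold changes were -1.75 in clone 3 and -0.31 in clone 10. Leaving out either of wild-type replicates 1 and 2, the ARID1A knockout had 4 called regions in place of 9, and regions 10 and 11 lost their calls without either, or without replicate 2 of either clone. Region 39 lost its call without either wild-type library or replicate 1 of either clone, and region 37 without wild-type replicate 1. On the authors' normalized values, tested with limma, 14 of the 67 regions were called, 9 higher and 5 lower. This was 20.9% of members, 64.3% of them higher, beside 15.1% of all regions, 64.5% of them higher. There the median of all regions rose by 0.224, and relative to that median region 44 fell by 1.62, region 7 by 1.02 and region 5 by 0.84 on the log2 scale. The 5 lower regions were among the 9 called on counts.

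**Figure D2:**
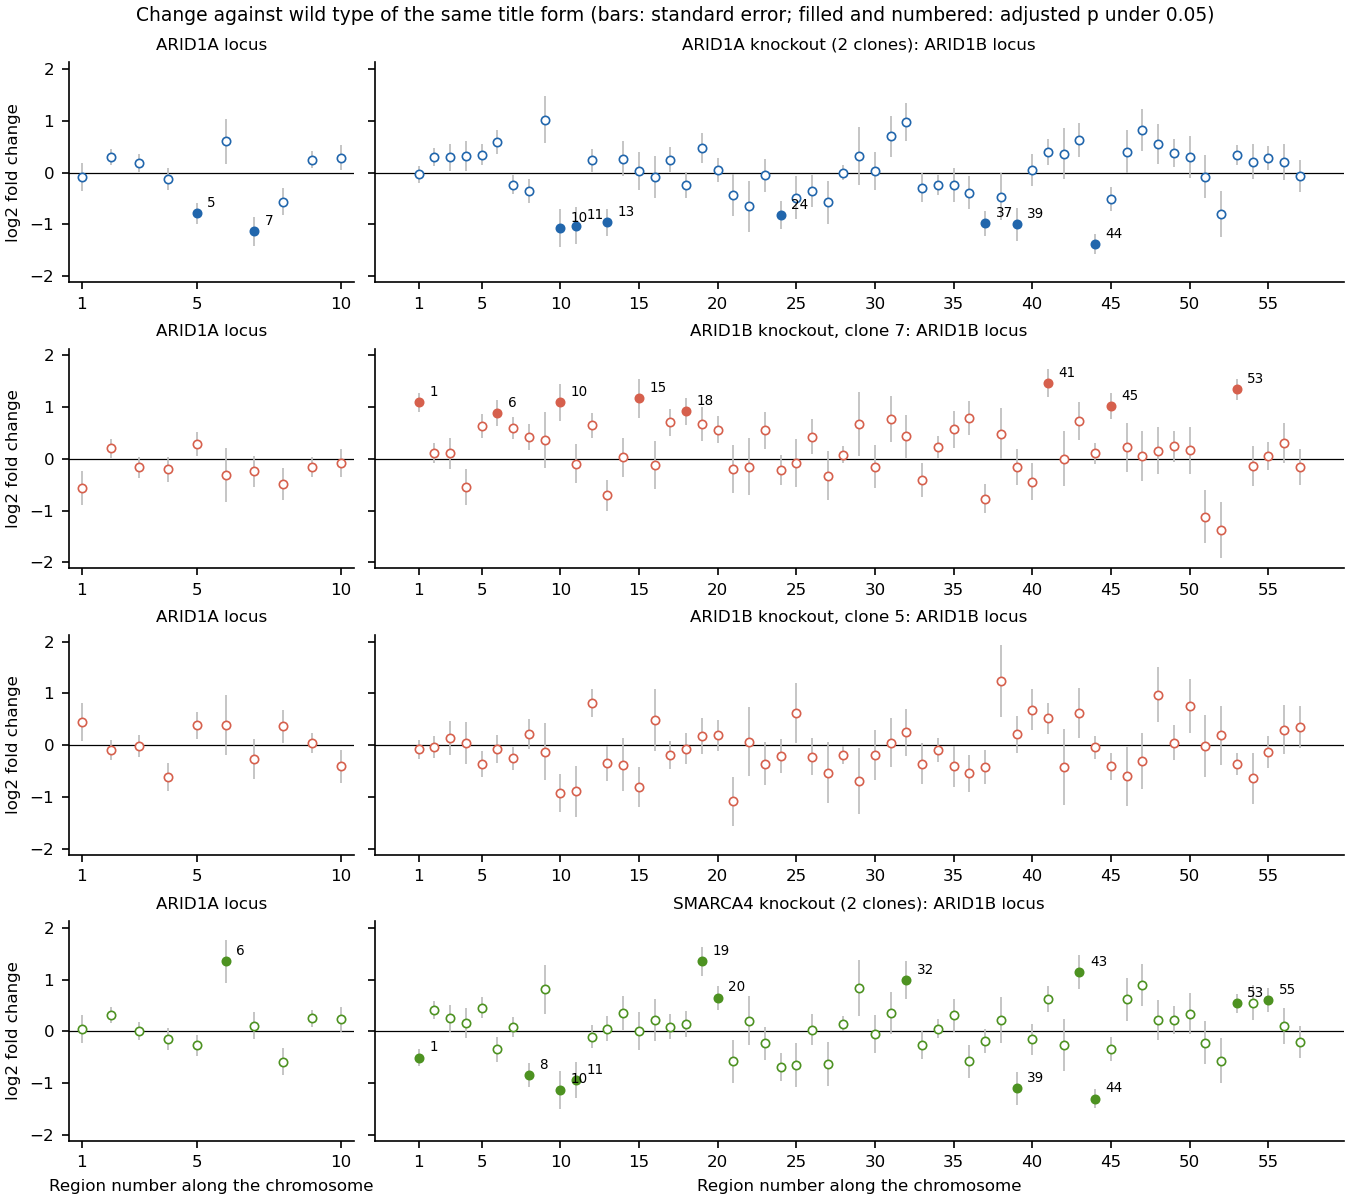
Log2 fold change against wild type of the same title form (vertical axis) by region number along the ARID1A locus (left) and the ARID1B locus (right), in 4 rows for the ARID1A knockout, ARID1B clone 7, ARID1B clone 5 and the SMARCA4 knockout. Bars are standard errors, and filled, numbered points passed an adjusted p of 0.05. The ARID1A knockout has 9 filled points, all below 0, ARID1B clone 7 has 8, all above 0, clone 5 has none and SMARCA4 has 13 on both sides.

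Loss of ARID1B gave no called region at the ARID1A locus. In ARID1B clone 7 (form 1) and in clone 5 (form 2), 0 of 10 ARID1A regions were called, beside 9.22% and 0.274% of all regions. With only 10 regions, 0 called is not set apart from these shares. Region 2 of ARID1A held 31.8 and 33.0 CPM in clone 7 and 32.1 and 26.6 in clone 5. The median log2 fold change over the ARID1A regions was -0.18 in clone 7 and 0.01 in clone 5, beside -0.02 over all regions in both. At unadjusted p under 0.05 there were 0 regions in clone 7 and 1 in clone 5. A test that misses the threshold does not show that the levels were equal.

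At its own locus, ARID1B clone 7 had 8 of 57 regions higher and 0 lower, and clone 5 had 0 called. The share over both loci was 11.9% in clone 7, beside 9.22% of all regions called and 6.03% called as higher, and clone 5 had 0.274% of all regions called. In clone 5, 5 of the 67 regions were at an unadjusted p under 0.05, and DESeq2 also called 0. The regions higher in clone 7 are 41, 53, 15, 1, 10, 45, 18 and 6. Of these, regions 1, 10, 15, 45 and 53 were also the ones at which the wild-type forms differed, and at regions 10, 15 and 45 the clone 7 libraries did not both exceed replicates 5 and 6. The median log2 fold change over the 57 regions was 0.22 in clone 7 and -0.09 in clone 5.

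Region 41 (chr6:157428825-157429904) was outside that set. It held 17.9 and 14.3 CPM in ARID1B clone 7, 6.21 and 5.38 in wild-type replicates 1 and 2, and 5.58 and 6.34 in replicates 5 and 6. Both clone 7 libraries were above all 4 wild-type libraries, and the log2 fold change was 1.46 (SE 0.27, adjusted p = 1.58e-05, edgeR). ARID1B clone 5 held 7.37 and 9.70 CPM, also above all 4, with a log2 change of 0.52 (SE 0.30, adjusted p = 0.674). Clone 7 minus clone 5, each against its own wild type, was not called at this region.

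Region 53 (chr6:157530864-157531882) held 34.8 and 35.1 CPM in clone 7, 15.7 and 11.6 in wild-type replicates 1 and 2, and 25.6 and 24.1 in replicates 5 and 6. Clone 7 was above both forms of wild type, with a log2 change of 1.35 (SE 0.21, adjusted p = 1.88e-07), and 0.87 (adjusted p = 0.000491) with all 4 wild-type libraries as the reference. Clone 5 was at 15.4 and 23.1 CPM, below replicates 5 and 6. Region 1 held 43.8 and 44.8 CPM in clone 7, a log2 change of 1.10 (SE 0.18, adjusted p = 1.95e-06) against replicates 1 and 2, and 34.4 and 42.8 in clone 5. The clone 7 libraries exceeded the 42.5 and 39.4 CPM of replicates 5 and 6 by little. Region 15 (chr6:157208641-157209337) and region 10 were called in clone 7 at 1.17 and 1.09, but held 3.92 and 6.28 CPM and 7.52 and 5.91 CPM there, against 6.44 and 5.91 and 7.59 and 7.64 in replicates 5 and 6. With all 4 wild-type libraries as the reference, 6 regions were called in clone 7, regions 1, 12, 18, 41, 43 and 53, all higher, or 8.96% of members beside 7.17% of all regions.

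**Figure D3:**
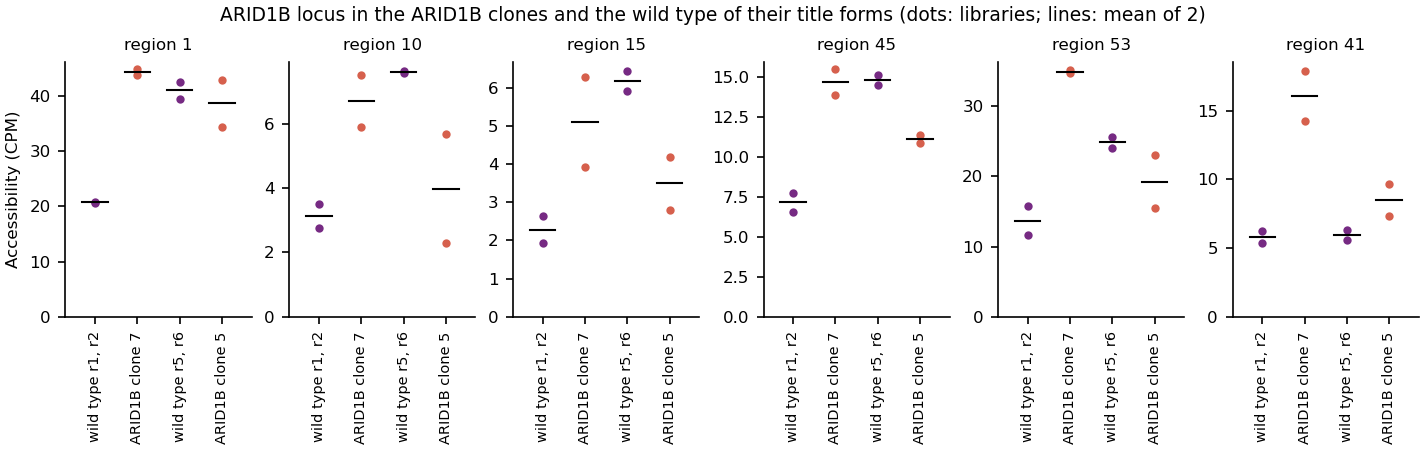
Accessibility in CPM (vertical axes from 0) of 6 regions of the ARID1B locus in wild-type replicates 1 and 2, ARID1B clone 7, wild-type replicates 5 and 6, and ARID1B clone 5. Dots are libraries and lines are means of 2. At regions 1, 10, 15 and 45 clone 7 lies near wild-type replicates 5 and 6, at region 53 it lies above them, and at region 41 both wild-type groups are near 6 CPM with clone 7 at 14.3 to 17.9.

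The clones of ARID1B differed from each other. Clone 7 minus clone 5, each to its wild type, was called at 5 of 57 regions, again 1, 10, 15, 45 and 53, with log2 differences of 1.18 to 2.01 and 4.97% of all regions called. The clones also differ in title form, so clone and form cannot be told apart here. As the mean of both clones, the ARID1B knockout had 4 higher regions (1, 12, 41 and 53), 0 lower, and 3.22% of all regions called. The calls of clone 7 numbered 5 when its replicate 2 or either of wild-type replicates 1 and 2 was left out. Regions 10 and 15 lost their calls without either wild-type library. Region 10 also lost its call without replicate 1 of clone 7, and region 15 without replicate 2. Regions 1, 41 and 53 were called with every alternative tried.

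ARID1A loss was set directly against ARID1B clone 7, which shares a title form with the ARID1A clones, so no wild-type library was needed. ARID1B clone 5 was not part of this comparison. At the ARID1A locus 2 of 10 regions were lower under ARID1A loss, the same regions 5 and 7, at -1.08 (SE 0.20, adjusted p = 5.85e-06) and -0.90 (SE 0.28, adjusted p = 0.0115). At the ARID1B locus 14 regions were lower under ARID1A loss than in ARID1B clone 7 and 1, region 4, was higher. This was 25.4% of the 67 regions, beside 20.1% of all regions called. The largest differences were -2.16 at region 10, -1.54 at region 45 (chr6:157476977-157478284) and -1.49 at region 44, and regions 36 (chr6:157401975-157402747) and 18 (chr6:157265289-157266126) had -1.18 and -1.16. Regions 10 and 45 were also called between ARID1B clones 7 and 5, each against its wild type, at log2 differences of 2.01 and 1.44. At region 44 the ARID1A libraries held 5.36 to 8.66 CPM and ARID1B clone 7 held 22.6 and 20.7, which lies among the wild-type libraries. At region 45 the ARID1A libraries held 3.98 to 6.19 CPM and clone 7 15.5 and 13.9.

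The SMARCA4 knockout (2 clones, 4 libraries) changed regions of both loci, in both directions at ARID1B. At ARID1A 1 of 10 regions rose and 0 fell, and at ARID1B 6 rose and 6 fell. The share called over both loci was 19.4%, beside 21.9% of all regions. The medians were 0.08 at ARID1A, 0.09 at ARID1B and 0.01 over all regions. In the 2 Mb around them the flanking medians were 0.28 and 0.21, with 16.1% and 25.7% of flanking regions called.

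At ARID1A, region 6 (chr1:27070435-27070936), a weak region, held 4.09 and 4.78 CPM in SMARCA4 clone 4, 4.71 and 3.64 in clone 6, and 1.36 and 2.03 in wild-type replicates 1 and 2. Replicates 5 and 6 were at 1.43 and 1.44 CPM, and no wild-type library overlapped. The log2 fold change was 1.35 (SE 0.42, adjusted p = 0.0111, edgeR), and the call was lost without wild-type replicate 1. Regions 5 and 7, which fell without ARID1A, had log2 fold changes of -0.27 (adjusted p = 0.388) and 0.11 (adjusted p = 0.816) without SMARCA4.

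At ARID1B the 6 lower regions were 44, 10, 39, 11, 8 and 1. Region 44 held 6.45 and 8.12 CPM in SMARCA4 clone 4 and 8.42 and 9.71 in clone 6. All were below the 19.8 to 22.9 CPM of the 4 wild-type libraries, with a log2 change of -1.30 (SE 0.19, adjusted p = 7.25e-09). Region 39 held 1.61 and 1.45 CPM in clone 4 and 3.03 and 1.54 in clone 6, against 3.88 and 4.18 in wild-type replicates 1 and 2, a log2 change of -1.10 (adjusted p = 0.00615). Region 1 held 14.3 and 15.3 CPM in clone 4 and 11.3 and 17.2 in clone 6, below all 4 wild-type libraries. At region 10 the SMARCA4 libraries held 0.883 to 2.85 CPM, below replicates 5 and 6. The highest of them reached the range of replicates 1 and 2, which began at 2.75. Regions 10, 11 and 8 (chr6:157128704-157129880) had -1.13 (adjusted p = 0.0168), -0.94 (adjusted p = 0.0418) and -0.84 (adjusted p = 0.00373). The comparisons of ARID1A and SMARCA4 share their wild-type libraries. Side by side, regions 44, 10, 11 and 39 had -1.39, -1.07, -1.03 and -1.0 without ARID1A and -1.30, -1.13, -0.94 and -1.10 without SMARCA4, and regions 37, 13 and 24, lower without ARID1A, had -0.18, 0.05 and -0.68 without SMARCA4 and did not pass the test.

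Against wild-type replicates 1 and 2, the regions that rose at ARID1B were 19, 43, 32, 20, 55 and 53. Region 53 held 22.3 and 24.2 CPM in clone 4 and 15.5 and 18.98 in clone 6, which is mostly below the 25.6 and 24.1 of replicates 5 and 6, so its rise was not seen against them, and it was not called with all 4 wild-type libraries as the reference. Region 19 (chr6:157267403-157268157) rose 2.56-fold, to 7.81 to 10.6 CPM in the 4 SMARCA4 libraries from 4.46 and 2.27 in wild-type replicates 1 and 2, a log2 change of 1.35 (SE 0.28, adjusted p = 5.69e-05). The groups did not overlap, and regions 19 and 44 were called with every alternative tried. Region 43 (chr6:157460330-157460970) held 3.75 to 8.42 CPM against 2.23 and 3.59, a log2 change of 1.15 (SE 0.33, adjusted p = 0.0045), and replicates 5 and 6 were at 1.43 and 2.02. Regions 32 (chr6:157366808-157367460), 20 (chr6:157274551-157275176) and 55 (chr6:157542191-157542882) had 1.0, 0.65 and 0.60, each with a call lost when any of 3 or more single libraries was left out. At regions 10 and 53 a SMARCA4 library reached the wild-type range. Without wild-type replicate 1 the SMARCA4 knockout had 8 called regions, and without replicate 2 it had 6. On the authors' normalized values 14 regions were called, 13 higher and 1 lower, against 7 and 6 on counts. This was 20.9% of members, beside 23.9% of all regions, 75.9% of them higher. There the median of all regions rose by 0.338, and relative to it region 44 fell by 1.72, region 19 rose by 1.29 and region 43 by 0.93.

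The 19 other knockouts left these loci largely uncalled. In all, 7 of 1273 pairs of region and knockout were called, or 0.55%, beside 0.993% of all pairs. All 7 were higher and at the ARID1B locus, and 14 of the 22 knockouts had no member called, with 0.0515% to 1.4% of all regions called in them. The 7 lay in 5 knockouts. ARID2, the DNA-binding subunit of PBAF, had 2 (1.79% of all regions called), SMARCD1, a core subunit, had 2 (1.58%), and BRD7, a bromodomain subunit of PBAF, had 1 (0.696%). DPF2, a histone-reading finger protein of canonical BAF, had 1 (1.79%) and SMARCC1, a scaffold of the core, had 1 (5.19%).

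Region 41 rose in ARID2 clone 9, to 13.8 and 12.9 CPM, with a log2 change of 1.2 (SE 0.27, adjusted p = 0.00324). It also rose in BRD7 clone 10, to 12.0 and 12.4 CPM, at 1.06 (adjusted p = 0.0269). The 4 wild-type libraries held 5.38 to 6.34 CPM at this region, below all of these. Region 53 was called in ARID2 at 0.75 (adjusted p = 0.0338) and in DPF2 clone 4 at 0.74 (adjusted p = 0.0374), with 21.5 to 24.7 CPM in these libraries, which is above wild-type replicates 1 and 2 and reaches replicates 5 and 6. Region 31 (chr6:157358145-157358767) held 5.46 and 5.50 CPM in SMARCD1 clone 6 against 1.94 and 1.55, a log2 change of 1.63 (SE 0.42, adjusted p = 0.0169). Region 1 was called in SMARCD1 at 0.82 (adjusted p = 0.00345), with 34.7 and 38.2 CPM, below replicates 5 and 6. Region 12 (chr6:157172409-157173287) was called in SMARCC1 clone 12 at 0.75 (adjusted p = 0.0473).

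The BCL7B clones had calls that their mean did not have. BCL7B clone 8, of form 1, was higher at ARID1B regions 1 and 53, at 0.90 and 0.79, with 4.83% of all regions called. It held 37.9 and 39.1 CPM at region 1 and 26.8 and 20.9 at region 53, so neither difference was seen against wild-type replicates 5 and 6. Clone 10, of form 2, was lower at ARID1B region 5 (chr6:157101333-157101958), at -0.97, with 0.741% called. The mean of the clones had 0 members called and 10 at an unadjusted p under 0.05, with 1.4% of all regions called. Without wild-type replicate 1 the 19 knockouts had 2 called pairs, and without replicate 2 they had 1. The single calls rest on the wild-type libraries to that extent, and those at regions 31 and 1 in SMARCD1, 53 in ARID2 and 41 in BRD7 were lost without either of them. They rest on the clones' own libraries too. Region 31 in SMARCD1, 53 in ARID2 and DPF2, 41 in BRD7 and 12 in SMARCC1 lost their calls without either own library. Region 1 in SMARCD1 lost its call without replicate 2 of its clone, and region 41 in ARID2 without replicate 1.

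Region 44 separated ARID1A and SMARCA4 from all other groups. In order of mean level over the 28 groups it held 6.92 ± 2.2 in ARID1A clone 10, 7.28 ± 1.18 in SMARCA4 clone 4, 8.48 ± 0.26 in ARID1A clone 3, 9.06 ± 0.92 in SMARCA4 clone 6 and 13 ± 2.42 in SMARCC1 clone 12 (CPM, SD, n = 2 each). The libraries of the first 4 groups, at 5.36 to 9.71 CPM, lay below every other library of the table. SMARCC1 clone 12 lay between, at 11.3 and 14.7 CPM, and its log2 fold change did not pass the test. The next groups held 16 ± 1.39 in DPF1 clone 11, 18.3 ± 5.7 in SMARCA2 clone 12, 18.5 ± 2.02 in DPF3 clone 1, 18.7 ± 3.04 in ARID2 clone 9, 19.8 ± 2.81 in PHF10 clone 11 and 20.1 ± 0.31 in wild-type replicates 1 and 2. Above them were 20.6 ± 2.0 in SMARCC2 clone 10, 20.7 ± 3.11 in SMARCD2 clone 10, 20.7 ± 2.95 in BCL11A clone 10, 20.8 ± 7.05 in ARID1B clone 5, 21.1 ± 5.43 in BCL7B clone 10, 21.1 ± 0.7 in ACTB clone 10, 21.5 ± 2.03 in wild-type replicates 5 and 6 and 21.6 ± 1.3 in ARID1B clone 7. The highest were 22.5 ± 5.28 in BCL7A clone 10, 23.0 ± 6.24 in PBRM1 clone 10, 23.7 ± 1.64 in SMARCD3 clone 12, 24.2 ± 2.33 in BCL11B clone 10, 24.4 ± 3.38 in BRD7 clone 10, 24.5 ± 0.32 in BRD9 clone 10, 27.1 ± 3.92 in SMARCD1 clone 6, 27.2 ± 5.82 in BCL7B clone 8 and 28.1 ± 2.07 in DPF2 clone 4. SMARCA4 clone 4 did not overlap ARID1A clone 3, the next in order. From DPF1 upward the libraries of every pair of neighbours in this order overlapped. Since members were chosen by position, this order is a description beside the tests above.

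**Figure D4:**
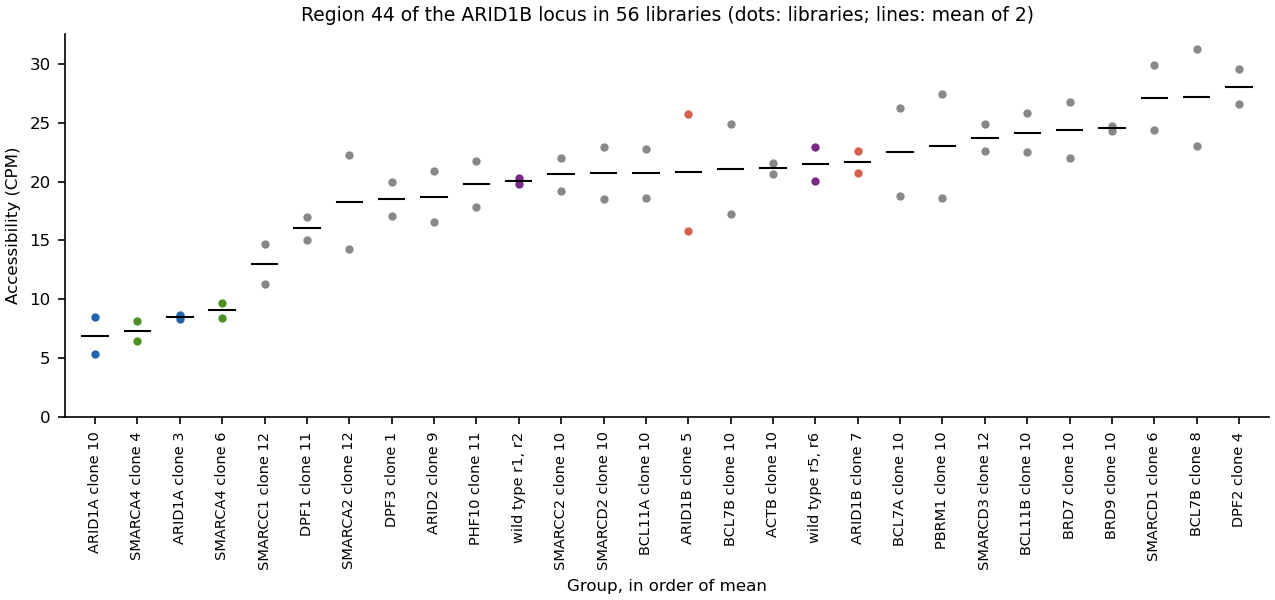
Accessibility of region 44 of the ARID1B locus (vertical axis, CPM from 0) in the 56 libraries of the knockout table, in 28 groups in order of mean. Dots are libraries and lines are means of 2, with ARID1A clones in blue, SMARCA4 clones in green, ARID1B clones in red and wild type in purple. The ARID1A and SMARCA4 libraries lie between 5.36 and 9.71 CPM and both wild-type groups near 20 CPM.

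The knockdown table gave the same region in other libraries. It was normalized apart from the knockout table, so levels are not set against each other. In SMARCA4 knockout cells with a control knockdown, region 44 held 9.23 and 8.77 CPM, against 26.5 and 20.6 in wild-type cells with a control knockdown, a log2 change of -1.39 (SE 0.39, adjusted p = 0.00976, edgeR). The groups did not overlap. In this comparison 5 of 67 regions were called, regions 44, 1 and 45 lower and 32 and 43 higher, and 9.75% of all regions were called. Region 1 held 19.2 and 16.6 CPM against 39.7 and 43.5, a log2 change of -1.21 (adjusted p = 0.0376). Region 45 held 4.99 and 4.86 CPM against 11.4 and 11.2, at -1.2 (adjusted p = 0.0189). Regions 32 and 43 were higher, at 1.53 (adjusted p = 0.0488) and 1.35 (adjusted p = 0.0294). The ARID1A locus had 0 of 10 called.

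SMARCA4 knockdown in wild-type cells had 1 member called in the main fit. Region 43 rose to 6.00 and 4.96 CPM from 1.76 and 2.06 in the control knockdown, a log2 change of 1.53 (SE 0.43, adjusted p = 0.0165), with 5.72% of all regions called. The call was lost without either control library or without SMARCA4 knockdown replicate 1. With the replicate number as a block in the fit, 5 members were called, or 7.46% beside 10.6% of all regions. Region 44 held 18.8 and 11.8 CPM, below the 26.5 and 20.6 of the control, and did not pass the test.

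In the 5 remaining knockdown comparisons no member was called in edgeR's quasi-likelihood test. These are the ARID2 knockdown and the double knockdown in wild-type cells (0.0% and 4.64% of all regions called), the SMARCA4 knockdown in ARID2 knockout cells (0.193%), the ARID2 knockdown in SMARCA4 knockout cells (0.0%) and the ARID2 knockout with a control knockdown (0.419%). At an unadjusted p under 0.05 they had 3, 5, 3, 4 and 3 members. Region 44 held 20.3 and 10.2 CPM in the double knockdown and 11.8 and 9.62 in SMARCA4 knockout cells with the ARID2 knockdown. In ARID2 knockout cells it held 33.7 and 17.9 CPM with the SMARCA4 knockdown and 24.6 and 16.4 with the control knockdown. Region 44 was thus not lower with the SMARCA4 knockdown in those cells, and the libraries overlapped. The libraries of SMARCA4 knockout cells were low in both of their groups. Those of the SMARCA4 knockdown and the double knockdown in wild-type cells lay below both control libraries without passing the test. With the ARID2 knockdown, wild-type cells held 23.8 and 12.8 CPM, the first above the 20.6 of control replicate 2.

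The most accessible region of each locus was called in no knockout. Region 2 of ARID1A ran from 23.6 ± 0.67 in BCL7B clone 10, 26.3 ± 1.21 in BCL7B clone 8, 27.4 ± 1.43 in BCL11A clone 10, 27.4 ± 1.87 in DPF1 clone 11, 27.4 ± 2.24 in ACTB clone 10, 27.5 ± 4.4 in SMARCD3 clone 12 and 28 ± 2.82 in SMARCD1 clone 6 (CPM, SD, n = 2 each). It went on with 28.1 ± 0.93 in BRD9 clone 10, 28.1 ± 2.54 in wild-type replicates 1 and 2, 28.3 ± 3.85 in SMARCD2 clone 10, 29.0 ± 0.22 in SMARCC2 clone 10, 29.4 ± 3.89 in ARID1B clone 5, 29.5 ± 5.45 in PHF10 clone 11, 29.5 ± 0.64 in BRD7 clone 10, 29.7 ± 1.23 in ARID1A clone 10, 29.8 ± 5.33 in PBRM1 clone 10 and 31.3 ± 8.14 in SMARCA2 clone 12. It ended with 31.4 ± 1.17 in wild-type replicates 5 and 6, 31.7 ± 0.68 in DPF3 clone 1, 31.9 ± 5.27 in SMARCC1 clone 12, 32.4 ± 0.86 in ARID1B clone 7, 32.4 ± 1.5 in DPF2 clone 4, 32.7 ± 2.88 in BCL11B clone 10, 33.6 ± 5.75 in BCL7A clone 10, 33.9 ± 0.72 in ARID2 clone 9, 34.3 ± 11.0 in SMARCA4 clone 4, 36.0 ± 3.98 in SMARCA4 clone 6 and 40.2 ± 3.03 in ARID1A clone 3. The lowest group, BCL7B clone 10, did not overlap the next, and each of the other neighbours in this order overlapped. The ARID1A knockout had both a clone near the middle and the highest clone at this region.

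Region 28 of ARID1B ran from 31.8 ± 4.46 in PBRM1 clone 10, 32.3 ± 2.72 in SMARCD3 clone 12, 32.8 ± 2.33 in BCL7B clone 10, 34.2 ± 1.26 in SMARCA2 clone 12, 36.3 ± 3.54 in BRD7 clone 10, 36.9 ± 3.66 in ARID1B clone 5, 37.2 ± 2.67 in BCL7B clone 8, 37.4 ± 7.09 in ARID2 clone 9 and 38.3 ± 1.92 in SMARCD1 clone 6. It went on with 39.6 ± 2.91 in BCL7A clone 10, 39.9 ± 6.48 in BCL11B clone 10, 40.3 ± 0.15 in BCL11A clone 10, 40.3 ± 0.59 in DPF1 clone 11, 41 ± 1.51 in SMARCD2 clone 10, 41.6 ± 1.03 in SMARCC1 clone 12, 41.9 ± 4.57 in wild-type replicates 5 and 6, 41.9 ± 0.34 in ARID1A clone 10, 42.1 ± 3.6 in BRD9 clone 10 and 42.3 ± 8.99 in SMARCC2 clone 10. It ended with 43.4 ± 4.18 in ACTB clone 10, 43.6 ± 7.51 in PHF10 clone 11, 45.4 ± 2.81 in wild-type replicates 1 and 2, 46.0 ± 2.22 in DPF3 clone 1, 47.9 ± 0.69 in ARID1B clone 7, 48.6 ± 8.91 in DPF2 clone 4, 49.0 ± 5.06 in SMARCA4 clone 6, 49.2 ± 6.83 in ARID1A clone 3 and 51.8 ± 6.21 in SMARCA4 clone 4. The libraries of every pair of neighbours overlapped, and the highest group was 1.63 times the lowest. Over the 28 group means, the regions on other chromosomes with the pattern most like region 2 of ARID1A were chr11:73498837-73499500 (Pearson r = 0.889), chr11:66383603-66385101 (0.857) and chr19:56110108-56112251 (0.83). Those most like region 28 of ARID1B were chr4:140097348-140098834 (0.902), chr7:95064000-95064673 (0.896) and chr4:154265499-154266679 (0.895). They are descriptions picked as the highest among all regions, over groups from 1 cell line and 1 table.

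The ARID1A locus was also summed over its regions. It held 105 ± 0.39 in SMARCC2 clone 10, 109 ± 2.6 in BCL7B clone 10, 111 ± 0.079 in BCL7B clone 8, 113 ± 0.2 in SMARCD3 clone 12, 116 ± 12.6 in ARID1B clone 5, 116 ± 1.13 in SMARCA2 clone 12 and 118 ± 9.49 in wild-type replicates 5 and 6 (CPM, SD, n = 2 each). Then came 119 ± 9.59 in SMARCC1 clone 12, 119 ± 14.8 in SMARCD1 clone 6, 119 ± 2.86 in BRD7 clone 10, 119.7 ± 1.1 in ACTB clone 10, 121 ± 11.0 in DPF1 clone 11, 122 ± 0.18 in ARID1B clone 7, 122 ± 1.77 in ARID1A clone 10, 123 ± 0.89 in BCL11A clone 10, 125 ± 14.8 in PBRM1 clone 10 and 126 ± 5.99 in BRD9 clone 10. The highest were 127 ± 4.33 in wild-type replicates 1 and 2, 127 ± 14.5 in BCL11B clone 10, 129 ± 14.1 in BCL7A clone 10, 129 ± 6.37 in SMARCD2 clone 10, 129 ± 15.1 in DPF3 clone 1, 129.5 ± 18.3 in PHF10 clone 11, 136 ± 4.0 in DPF2 clone 4, 137 ± 2.08 in SMARCA4 clone 6, 138 ± 4.58 in ARID2 clone 9, 139.6 ± 22.2 in SMARCA4 clone 4 and 142 ± 12.9 in ARID1A clone 3. The highest group was 1.36 times the lowest, close to the 1.38 times of the summed ARID1B locus. Neighbours in this order overlapped except SMARCC2 clone 10 and BCL7B clone 8, each below the next group without overlap.

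The summed ARID1B locus was highest in ARID1B clone 7. Its libraries held 482 and 474 CPM, above each of the other 54, of which the highest was wild-type replicate 5 at 431 CPM. This was the 1 pair of neighbours in the order that did not overlap. The groups held 345 ± 8.68 in ARID1A clone 10, 356 ± 21.4 in DPF1 clone 11, 357 ± 7.61 in SMARCD3 clone 12, 358 ± 22.2 in wild-type replicates 1 and 2, 359 ± 7.95 in DPF3 clone 1, 359 ± 15.7 in SMARCC1 clone 12, 361 ± 30.3 in SMARCA2 clone 12, 362 ± 4.79 in SMARCA4 clone 6 and 365 ± 13.4 in ARID1A clone 3 (CPM, SD, n = 2 each). Then came 371 ± 11.8 in BCL7B clone 10, 376 ± 30.0 in PHF10 clone 11, 377 ± 20.9 in BCL7A clone 10, 378 ± 7.43 in SMARCD2 clone 10, 380.0 ± 6.21 in BCL11B clone 10, 380.4 ± 10.6 in BRD9 clone 10, 382 ± 21.1 in ARID1B clone 5, 382 ± 36.7 in PBRM1 clone 10 and 385 ± 3.43 in BCL11A clone 10. The highest were 393 ± 12.2 in ARID2 clone 9, 394 ± 1.17 in ACTB clone 10, 396 ± 18.1 in SMARCD1 clone 6, 398 ± 13.2 in SMARCA4 clone 4, 399 ± 15.7 in BRD7 clone 10, 402 ± 11.4 in SMARCC2 clone 10, 403 ± 19.3 in DPF2 clone 4, 409.6 ± 28.1 in BCL7B clone 8, 412 ± 27.4 in wild-type replicates 5 and 6 and 478 ± 5.89 in ARID1B clone 7. The other ARID1B clone lay below its wild type, at 367 and 396 CPM against 431 and 393, with overlap. ARID1A clone 10 was the lowest of the groups and overlapped wild-type replicates 1 and 2, which held 374 and 343 CPM.

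**Figure D5:**
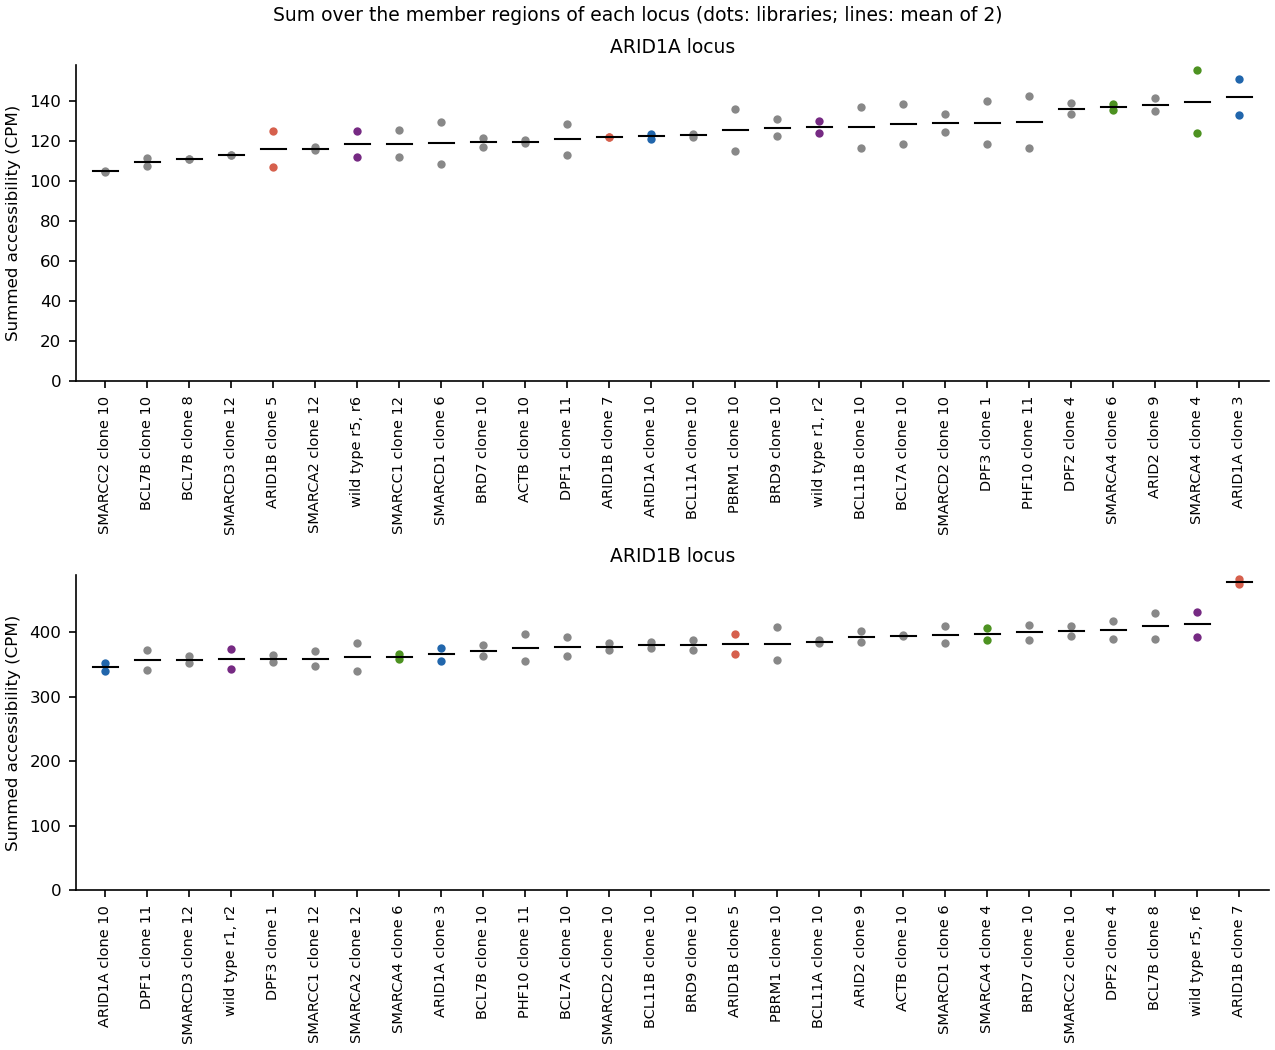
Accessibility summed over the 10 regions of the ARID1A locus (top) and the 57 of the ARID1B locus (bottom), in CPM from 0, for 28 groups in order of mean. Dots are libraries and lines are means of 2, with ARID1A clones in blue, ARID1B in red, SMARCA4 in green and wild type in purple. At ARID1B the libraries of ARID1B clone 7 stand alone at 474 and 482 CPM.

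Across all 22 knockouts, with ARID1B and BCL7B as the mean of their clones, 3 of 10 ARID1A regions and 18 of 57 ARID1B regions were called at least 1 time. This was 31.3% of the 67 members, beside 29.8% of all regions, a share near that of the genome. No ARID1A region was called in more than 1 knockout, and 8 ARID1B regions were, or 11.9% of members beside 13.9% of all regions. Region 53 was higher in 4 (ARID1B, ARID2, DPF2 and SMARCA4) and region 41 in 3 (ARID1B, ARID2 and BRD7). Region 1 was the 1 region called in both directions, higher in ARID1B and SMARCD1 and lower in SMARCA4. These knockouts share wild-type replicates 1 and 2, except for the form 2 clones, and region 53 and region 1 differed between the wild-type forms. The variation over the 28 group means, as a coefficient of variation, had a median of 20.5% at ARID1A and 25.1% at ARID1B, against 13.1% and 16.1% between the libraries of a group. It was largest at regions 41 (42.4%), 45 (40.4%) and 10 (38.0%) of ARID1B, where the highest groups were ARID1B clone 7 at region 41 and wild-type replicates 5 and 6 at regions 45 and 10.

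Over the whole series, a knockout library held 5085811 to 12422345 counts and a knockdown library 5355899 to 12432292. The median count of a member region was 23 to 61 per library in the first and 26 to 50 in the second. Reads carry no molecular identifiers, and the size of a count bears on counting error only. The standard errors and p-values rest on the spread among libraries.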

How the data were processed

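ATAC-seq, which counts transposase insertions into open chromatin, was measured in HAP1 cells. The deposited tables hold counts per region made by the authors, 1 table for knockouts and 1 for knockdowns, on hg19, and Bowtie2 2.2.4, Picard 1.118 and MACS2 2.1.1.20160309 are named in the submitters' processing notes without their roles. The authors' deposited normalized values for 48 of the libraries were taken as log2 from their range, their method is not given in the sources used here, and they served as an alternative only. Of 74 samples, 72 were matched to a column by title. The other 2, wild-type replicates 3 and 4, were not analysed here, and 2 columns that match no sample were not used.

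Each table was fitted once, with 1 coefficient per clone and title form or per knockdown group, by edgeR 4.0.16 in R 4.3.3 (TMM, filterByExpr, quasi-likelihood test, Benjamini-Hochberg adjustment over 145532 and 145617 regions). A gene with 2 clones was their mean. Total counts were 5085811 to 12422345 and 5355899 to 12432292 per library. A region was called at an adjusted p of 0.05. Alternatives were DESeq2 1.42.0, other size factors, no filter, a replicate block, other reference libraries, limma 3.58.1 on the authors' values, and leaving out each library. The scripts were tested on simulated data.

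The members and lists were chosen with earlier results of these data known. Named regions were the most accessible of each locus, with values in every group, up to 5 called members per direction and locus in a comparison by size of the change, and the 3 regions on other chromosomes most like the former by Pearson r. Called members beyond those 5, and uncalled members given for comparison, were named after their values were seen. The files pair no region with a gene, and no hg19 annotation was used here, so gene starts, exons and a list of BAF subunit genes were not analysed. Promoter sequences are from RefSeq (GRCh38.p14). Whether region starts count from 0 or 1 is not stated.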

Additional observations from a re-analysis of the deposited data

Results flagged for a closer look

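Among 44 sets, each of 1 region in the 4 libraries of 1 knockout, 5 held a library far from the others. Chance gives this in about 5.0% of independent sets. Sets at different regions reuse the same libraries and are not independent, so that rate is no measure for them. The 4 libraries of each such set come from 2 clones. In the ARID1A knockout, replicate 1 of clone 10 stood apart at 4 regions of the ARID1B locus, with 4.36 CPM at region 41, 7.04 at region 43, 5.36 at region 44 and 11.4 at region 53. It was the lowest library at regions 41, 44 and 53 and the highest at region 43. Without it the ARID1A knockout had 9 called members, of which 2 were higher. In the SMARCA4 knockout, replicate 1 of clone 6 was the highest at region 39, at 3.03 CPM.

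The effects of the ARID1B clones, each against the wild type of its title form, differed at 5 regions of the ARID1B locus by edgeR's quasi-likelihood test of the difference itself. Clone 7 exceeded clone 5 by 1.18 on the log2 scale at region 1, by 2.01 at region 10 and by 1.99 at region 15. It exceeded clone 5 by 1.44 at region 45 and by 1.71 at region 53. At these regions the wild-type forms differed too, so clone and form cannot be told apart.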

How the results depend on the processing

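The number of called members changed with the reference libraries. With all 4 wild-type libraries pooled, the ARID1A knockout had 16 called members in place of 9, SMARCA4 had 20 in place of 13 and the other 19 knockouts had 23 in place of 7, or 23.9%, 29.9% and 1.81% of members beside 23.0%, 34.7% and 3.11% of all regions. With the mean of the other knockouts as the reference these counts were 20, 27 and 35, and ARID1B clone 7 had 15 in place of 8, with 24.3%, 38.3%, 4.14% and 16.7% of all regions called. The authors' normalized values gave 14 for ARID1A. Leaving out 1 library gave 4 to 9 for ARID1A, 5 to 6 for ARID1B clone 7, 0 to 0 for clone 5, 6 to 12 for SMARCA4, 1 to 8 for the other 19 and 0 to 1 for the SMARCA4 knockdown in wild-type cells. The lowest counts came without wild-type replicate 1 or 2, for clone 7 also without its own replicate 2, and for the knockdown without either control library. A left-out clone library bears only on its own gene, while a left-out wild-type library bears on every clone of its form. The lowest count of the other 19 thus does not show which library matters most. The call at region 43 in the knockdown was also lost without SMARCA4 knockdown replicate 1. A library left alone in its group is assumed to vary like the other groups. The cause was not tested. DESeq2, other size factors and no filter kept every count within 1.5 times.

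With the replicate number as a block, the SMARCA4 knockdown had 5 called members in place of 1, or 7.46% beside 10.6% of all regions, and no other count moved by over 1.5 times. Deviations of same-numbered libraries correlated at -0.16 to 0.253 between knockout groups, over 0.1 in 32 of 276 pairs of groups, and at 0.0622 to 0.438 between knockdown groups, over 0.1 in 25 of 28. In the knockdown table replicate 1 had the higher summed level in 8 of 8 groups at both loci. Not every pair of groups was over 0.1 and the labels tie the numbers to no culture or day, so the block was not made the main analysis, though same-numbered knockdown libraries mostly deviated together. Clone 5 has no block and no test on the authors' values. SMARCC2 was not analysed on these values, and the other 18 knockouts had 20 called pairs there, 1.66% beside 1.99% of all pairs.

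Over 31 called results of single regions, 388 alternative values held 299 past the threshold in the same direction, 89 no longer past it and 0 reversed, and 7 results were called under every alternative tried. With 2 libraries a group and a median member count of 23 to 61, depth limits the precision at weak regions.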
